A study of Mus musculus with 4 samples.

Results

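The T cell receptor and T lineage genes examined here are 32 genes taken by name from the table of expression values that the authors deposited for mammary tissue with and without miR-21. Each of the 32 names was found in a single locus of the table, among 22479 gene names in all, and a name that the table joins with others was accepted. The table compares virgin mammary glands of 2 miR-21+/+ and 2 miR-21-/- mice, 2 months old and of mixed 129SV::FVB/N::C57BL/6 background. The miR-21-/- mice lack the microRNA, and the sources name no promoter or Cre that would restrict this loss to a cell type. No treatment is given for either genotype. The authors combined the 2 mice of a genotype into 1 FPKM value for each locus, an expression level scaled to transcript length and to the fragments mapped. With 1 value per genotype, how far mice of a genotype differ is not known, so no test was made and no difference below has a replicate check. A log2 ratio is that of the miR-21-/- value over the miR-21+/+ value, without a pseudocount, so that a negative ratio means a lower value in miR-21-/- glands.

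T cells recognise antigen through a receptor of variable chains that cannot signal on their own and depend on the CD3 and zeta chains. When the receptor and the coreceptor CD4 or CD8 bind the same peptide-MHC complex, LCK phosphorylates the tails of these chains, ZAP-70 docks there, and the adaptors LAT and SLP-76 pass the signal to calcium, Ras and protein kinase C. T cells are a minor population of the virgin gland, where they are found among the epithelium and in the fat pad, and they are a main population of the lymph node that lies in that fat pad. Whether this lymph node was left out of the samples is not given in the sources used here. In bulk tissue, fewer T cells and less RNA per T cell cannot be told apart.

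All 32 genes had a lower FPKM value in miR-21-/- than in miR-21+/+ glands, as did 55.6% of named genes above a mean FPKM of 1. Lower by at least 1.5-fold were 27 of the 32, beside 10.3% of named genes above 0 in both genotypes. The log2 ratios of the 32 genes ran from −0.33 for Lcp2 to −3.45 for Ctla4, with a median of −1.93. They were not abundant in this tissue, at 0.658 to 21.7 FPKM with miR-21 and 0.0960 to 16.9 FPKM without it, and their values summed to 175 and 76 FPKM. Above 5 FPKM were 12 of them in miR-21+/+ but 3 in miR-21-/- glands, namely Fyn, Il2rg and Cd27. The differences were uneven: 12 genes had a log2 ratio under −2, another 13 lay between −2 and −1, and 7 were above −1.

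**Figure D1:**
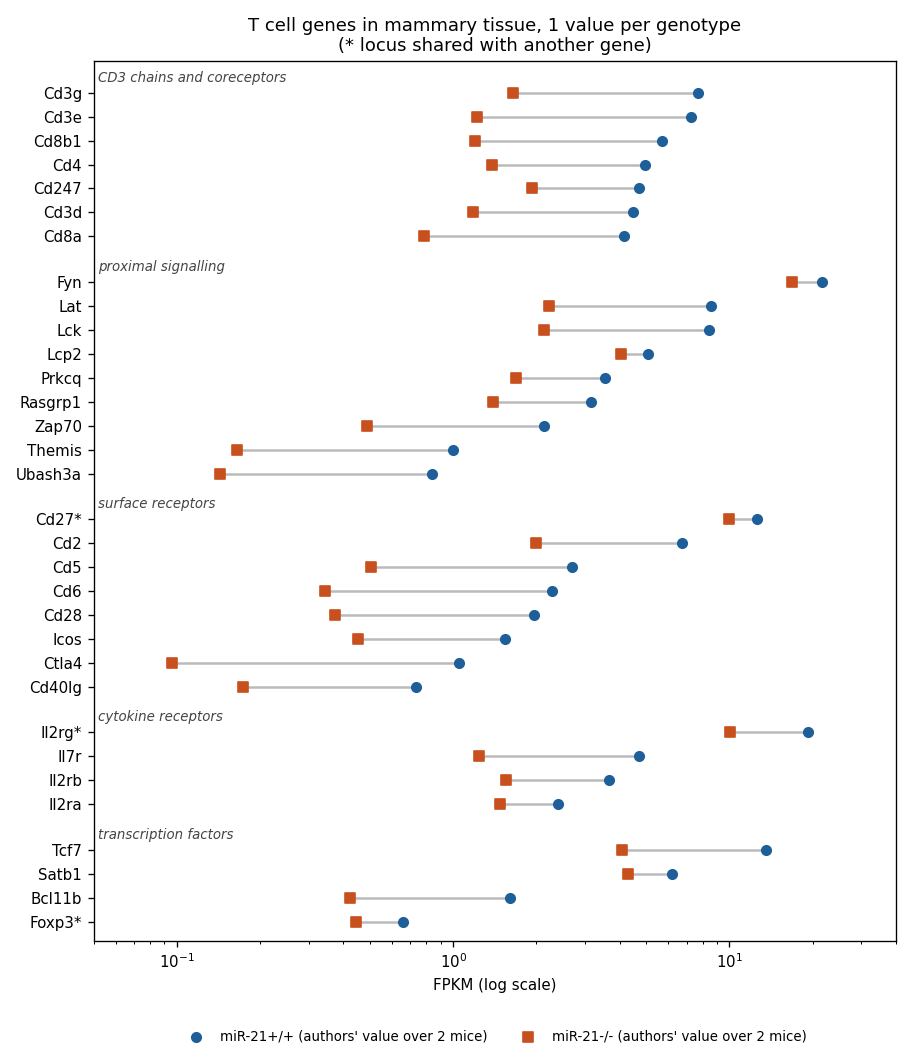
FPKM (log axis) of the 32 T cell genes in miR-21+/+ (circles) and miR-21-/- (squares) glands, grouped by role, with 1 value per genotype that combines 2 mice and therefore no error bars. Each square lies to the left of its circle, and the grey line between them is shortest for Lcp2, Cd27 and Fyn and longest for Ctla4, which was at 1.05 and 0.0960 FPKM.

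Of the 13636 named genes with a mean FPKM over the genotypes above 1, 5.79% were lower by at least 1.5-fold in miR-21-/- glands and 4.88% were higher. Their median log2 ratio was −0.03. Of the T cell genes, 26 passed this minimum, and 22 of these were lower by at least 1.5-fold and 0 higher. At 2-fold the count was 20 of 26, beside 2.09% of all named genes. Because 9 of the 32 were above 1 FPKM in miR-21+/+ glands and not in miR-21-/- glands, some genes passed through the genotype in which they were high. Above 1 FPKM in both genotypes were 20 of the genes, 16 of them lower by at least 1.5-fold, beside 4.9% of 13318 named genes. In the window of 1 to 10 FPKM, in which most of the genes lie, 21 of 23 were lower, beside 7.94%. Without any minimum the figures were 27 of 32 and 10.3%. Ranked by ratio among the 13636 genes, 16 of the 26 T cell genes in that set lay in the lowest 1% and 22 in the lowest 5%. Just inside the limit of 1.5-fold was Il2ra at −0.70, and just outside were Foxp3 at −0.57 and Satb1 at −0.53.

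**Figure D2:**
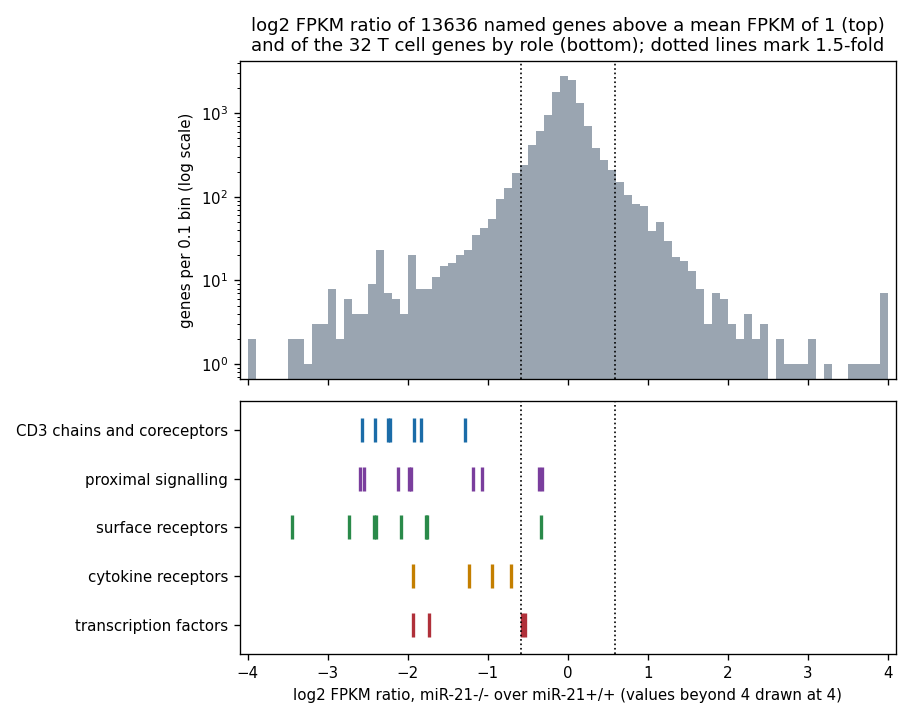
Upper panel: number of named genes above a mean FPKM of 1 per 0.1 of log2 ratio (miR-21-/- over miR-21+/+, log count axis). Lower panel: the 32 T cell genes as vertical ticks by role, where all lie below 0 and 27 lie to the left of the dotted line at 1.5-fold lower.

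The number of reads behind these values can be estimated roughly from the table. Among genes with a single annotated coding transcript, the commonest low value of FPKM times length in kilobases was 0.0210 in miR-21+/+ glands and 0.0253 in miR-21-/- glands, which may be the worth of 1 read. On that assumption Cd3e rested on about 495 reads in miR-21+/+ glands and 69 in miR-21-/- glands, and Cd4 on about 730 and 170. The lowest estimates were those of Ctla4, at about 96 and 7 reads, and Cd40lg, at about 44 and 9, so that the folds of these genes are the least precise. These estimates say nothing of the spread between mice.

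The CD3 chains, which carry the signal of the receptor into the cell, were all lower. Cd3e had 7.26 FPKM in miR-21+/+ and 1.22 FPKM in miR-21-/- glands, a log2 ratio of −2.57. Cd3g was at 7.70 and 1.65 FPKM (−2.22). Cd3d was at 4.49 and 1.18 FPKM (−1.92). For each of these 3 genes between 16.8% and 26.3% of the miR-21+/+ level was left. Cd247, which encodes the zeta chain with the most phosphorylation motifs of the complex, was at 4.71 and 1.93 FPKM (−1.29), so that 40.9% was left. Zeta is also used by activating receptors of NK cells.

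The coreceptors were lower to a like degree. Cd4, the coreceptor for MHC class II, was at 4.94 and 1.39 FPKM, a log2 ratio of −1.83. Cd8a and Cd8b1 encode the 2 chains of the coreceptor for MHC class I. Cd8a was at 4.14 and 0.783 FPKM (−2.40) and Cd8b1 at 5.72 and 1.20 FPKM (−2.25). The ratio of Cd4 to Cd8a, which does not depend on how the columns are scaled, was 1.19 in miR-21+/+ glands and 1.77 in miR-21-/- glands. That of Cd8a to Cd8b1 was 0.725 and 0.650. CD4 is also made by some mouse dendritic cells and macrophage-lineage cells, and CD8 alpha without beta by some dendritic cells. Together the 7 CD3 and coreceptor genes summed to 39 and 9.36 FPKM, and all 7 were lower by at least 2-fold.

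The chains that recognise antigen have no name in the table, and 30 of its unnamed entries overlapped gene segments of the T cell receptor in the GENCODE annotation of mm9. They were looked up after the values of the table had been seen. All 30 were lower in miR-21-/- glands, and 2 had a value of 0 there. Of the 28 above 0 in both genotypes, 26 were lower by at least 1.5-fold, beside 29.6% of all 7896 unnamed entries above 0 in both, and their median log2 ratio was −2.30. The most abundant was the beta chain entry on chromosome 6 from 41483768 to 41498353, which spans the constant genes Trbc1 and Trbc2 with their joining segments, at 37.3 and 8.16 FPKM (−2.19). The alpha chain entry on chromosome 14 from 54789517 to 54843877, which holds Trac, was at 12.9 and 2.73 FPKM (−2.24). The table marks the authors' test of this locus as failed. Entries over segments annotated in the gamma locus reached at most 0.858 and 0.339 FPKM. Of the 30 entries, 11 were above a mean FPKM of 1 and all 11 were lower by at least 1.5-fold, beside 25.4% of 2727 such unnamed entries. Most of these 11 passed only through their miR-21+/+ value, so a lower ratio was partly built in. Above 1 FPKM in both genotypes were the Trbc and Trac entries described above and entries over Trbv29 (8.17 and 2.57 FPKM) and Trdv4 (3.65 and 1.06 FPKM). Entries over variable segments can be as short as 237 bases and several entries share a span, so they are not separate measurements.

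Promoters of the CD3 genes are shown because the 3 genes lie side by side and were lower together, and that of Fyn because its ratio was small. They are the RefSeq windows of build GRCm38.p6, from 250 bases before to 50 after the start of the gene, with matches to any of 6 motifs on either strand in capitals. The letters searched were AGGAAG for ETS factors, TGTGGT for RUNX, CTTTGA for TCF, AGATAA for GATA factors and CAGCTG for an E-box, and a TATA box was searched as TATAAA.
Cd3g, chr9:44980382-44980681, minus strand: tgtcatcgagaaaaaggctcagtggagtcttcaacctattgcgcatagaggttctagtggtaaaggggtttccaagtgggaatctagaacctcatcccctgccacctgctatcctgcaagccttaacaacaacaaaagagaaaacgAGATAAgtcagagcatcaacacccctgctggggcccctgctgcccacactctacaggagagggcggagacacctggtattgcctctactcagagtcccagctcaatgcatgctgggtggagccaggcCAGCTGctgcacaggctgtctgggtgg
Cd3d, chr9:44981536-44981835, plus strand: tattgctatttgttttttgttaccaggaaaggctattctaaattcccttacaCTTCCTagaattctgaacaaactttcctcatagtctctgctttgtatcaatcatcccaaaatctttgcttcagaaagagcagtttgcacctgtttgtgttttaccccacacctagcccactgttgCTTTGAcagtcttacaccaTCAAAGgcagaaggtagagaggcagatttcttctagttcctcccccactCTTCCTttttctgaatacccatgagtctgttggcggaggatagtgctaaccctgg
Cd3e, chr9:45009562-45009861, minus strand: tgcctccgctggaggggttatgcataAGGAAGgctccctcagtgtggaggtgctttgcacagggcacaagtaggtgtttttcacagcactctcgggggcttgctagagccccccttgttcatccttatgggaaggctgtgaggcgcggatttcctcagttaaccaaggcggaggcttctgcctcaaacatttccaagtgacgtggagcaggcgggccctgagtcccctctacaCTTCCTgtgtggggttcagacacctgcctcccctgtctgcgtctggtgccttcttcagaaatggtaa
Fyn, chr10:39369549-39369848, plus strand: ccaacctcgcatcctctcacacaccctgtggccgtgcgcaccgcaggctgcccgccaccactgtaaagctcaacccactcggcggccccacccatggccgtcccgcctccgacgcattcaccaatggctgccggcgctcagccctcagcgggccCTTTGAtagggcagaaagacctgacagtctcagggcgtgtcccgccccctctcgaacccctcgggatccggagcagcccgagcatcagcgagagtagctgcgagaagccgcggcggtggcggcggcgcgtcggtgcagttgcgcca
The Cd3d window held CTTCCT, the reverse of AGGAAG on the other strand, at 2 places and CTTTGA on each strand, the Cd3e window held AGGAAG on each strand, and the Cd3g window held AGATAA and CAGCTG. The Fyn window held a single CTTTGA and was richer in G and C, at 69%, against 54% for Cd3g, 42.3% for Cd3d and 56.7% for Cd3e. Windows of genes with lower ratios than Fyn could be rich in G and C too, such as those of Tcf7 (76.3% and 64.3%) and Lat (65.7%). RefSeq windows were found for 24 of the 32 genes, 34 windows in all. AGGAAG was present in 55.9% of these 34 windows and in 35.4% of all 32851, and CTTTGA in 23.5% and 16%. TGTGGT was present in 14.7% and 16.8%, AGATAA in 11.8% and 11.2%, CAGCTG in 17.6% and 16.3%, and TATAAA in 11.8% and 13.6%. A match of 6 letters describes the window and does not show that a factor binds there.

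Of the kinases that start the signal, Lck and Zap70 were lower by more than Fyn. Lck, the kinase bound to the coreceptors, was at 8.41 and 2.13 FPKM, a log2 ratio of −1.98. Zap70, which binds the phosphorylated CD3 and zeta tails, was at 2.13 and 0.487 FPKM (−2.13). Fyn, a related Src family kinase that many tissues express, was the most abundant of the 32 genes in both genotypes, at 21.7 and 16.9 FPKM (−0.36). The ratio of Fyn to Lck was thus 2.58 in miR-21+/+ glands and 7.91 in miR-21-/- glands. Prkcq, protein kinase C theta, which is also made in muscle, was at 3.55 and 1.69 FPKM (−1.07).

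Among the adaptors and regulators the ratios were uneven too. Lat, the membrane scaffold, was at 8.60 and 2.22 FPKM (−1.95). Lcp2, which encodes SLP-76 and is also expressed in myeloid cells, platelets and mast cells, was at 5.08 and 4.05 FPKM (−0.33). Rasgrp1, which activates Ras downstream of diacylglycerol, was at 3.16 and 1.40 FPKM (−1.18). Themis, needed for the selection of thymocytes, was at 1.00 and 0.165 FPKM (−2.60). Ubash3a, a suppressor of receptor signalling, was at 0.838 and 0.143 FPKM (−2.55). The last 2 were below a mean FPKM of 1. Of these 9 signalling genes, 7 were lower by at least 2-fold, all except Fyn and Lcp2.

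Among the surface receptors that set the strength of activation were the most negative plain ratios, those of Ctla4 and Cd6. With a pseudocount of 1 the log2 ratios of Ctla4 (−0.90) and Cd6 (−1.29) were smaller in size than that of Cd3e (−1.89). Cd5, an inhibitor of receptor signalling that a subset of B cells also carries, was at 2.70 and 0.505 FPKM (−2.42). Its neighbour and relative Cd6 was at 2.29 and 0.343 FPKM (−2.74), with 15.0% left. Cd2, an adhesion receptor of T and NK cells, was at 6.75 and 2.00 FPKM (−1.76).

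Receptors and ligands of costimulation followed, all but Cd27 lower by at least 1.5-fold, with Icos, Ctla4 and Cd40lg below a mean FPKM of 1. Cd28, the main costimulatory receptor, was at 1.97 and 0.373 FPKM (−2.40). Icos, which supports helper T cells in the follicle, was at 1.54 and 0.451 FPKM (−1.78). Ctla4, which competes with CD28 for the same ligands and is most abundant in regulatory and activated T cells, was at 1.05 and 0.0960 FPKM (−3.45). It had the most negative ratio of the 32, with 9.15% of the miR-21+/+ value left, at the low read number given above. Cd40lg, the signal of helper T cells to B cells, was at 0.735 and 0.173 FPKM (−2.08). Cd27, a costimulatory receptor of the TNF receptor family, was at 12.6 and 9.98 FPKM (−0.33), but the table joins it with the neighbouring gene Tapbpl, so that its own value is not known.

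The interleukin receptors were lower by less than the CD3 genes, apart from Il7r. Il7r, the receptor on which naive T cells depend for survival, was at 4.72 and 1.24 FPKM (−1.93). Il2rb, shared by the receptors for interleukins 2 and 15 and found on NK cells too, was at 3.66 and 1.55 FPKM (−1.24). Il2rg, the common gamma chain of several interleukin receptors on many leukocytes, was at 19.2 and 10.01 FPKM (−0.94) in a locus joined with Gm614. Il2ra, the high affinity chain on regulatory and activated T cells, was at 2.40 and 1.47 FPKM (−0.70). The ratio of Il2ra to Il7r was 0.509 in miR-21+/+ glands and 1.19 in miR-21-/- glands. With a pseudocount of 1 the log2 ratio of Il2ra was smaller than 1.5-fold, as was that of Cd40lg.

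Of the transcription factors, Tcf7 was the most abundant. It encodes TCF-1, which marks naive and memory T cells, and was at 13.6 and 4.09 FPKM (−1.73). Bcl11b, which commits precursors to the T lineage, was at 1.61 and 0.423 FPKM (−1.93). Satb1, a chromatin organiser that epithelial cells and neurons express as well, was at 6.22 and 4.30 FPKM (−0.53), in a locus whose test by the authors is marked as failed. Foxp3, the factor of regulatory T cells, was below a mean FPKM of 1, at 0.658 and 0.444 FPKM (−0.57). It shares its locus with 4930524L23Rik, so that neither value is that of Foxp3 alone.

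Relative levels within a genotype do not depend on the scaling of the columns. The summed FPKM of Cd3d, Cd3e and Cd3g was 19.4 in miR-21+/+ glands and 4.05 in miR-21-/- glands, 4.80-fold lower. Divided by this sum, 17 of the other 29 genes kept their proportion within 1.5-fold, among them Cd8b1 (1.01-fold of the miR-21+/+ proportion), Zap70 (1.10), Cd40lg (1.13), Lck (1.22), Lat (1.24), Il7r (1.26) and Bcl11b (1.26). The proportion of 22 of the 29 was higher in miR-21-/- glands, most for Lcp2 (3.83-fold), Cd27 (3.80) and Fyn (3.73), followed by Satb1 (3.32), Foxp3 (3.24), Il2ra (2.94) and Il2rg (2.50). Prkcq, Rasgrp1, Il2rb and Cd247 lay between 1.96 and 2.28. Below 1 were Cd28 (0.909), Cd8a (0.906), Cd5 (0.899), Ubash3a (0.821), Themis (0.792), Cd6 (0.720) and Ctla4 (0.439).

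**Figure D3:**
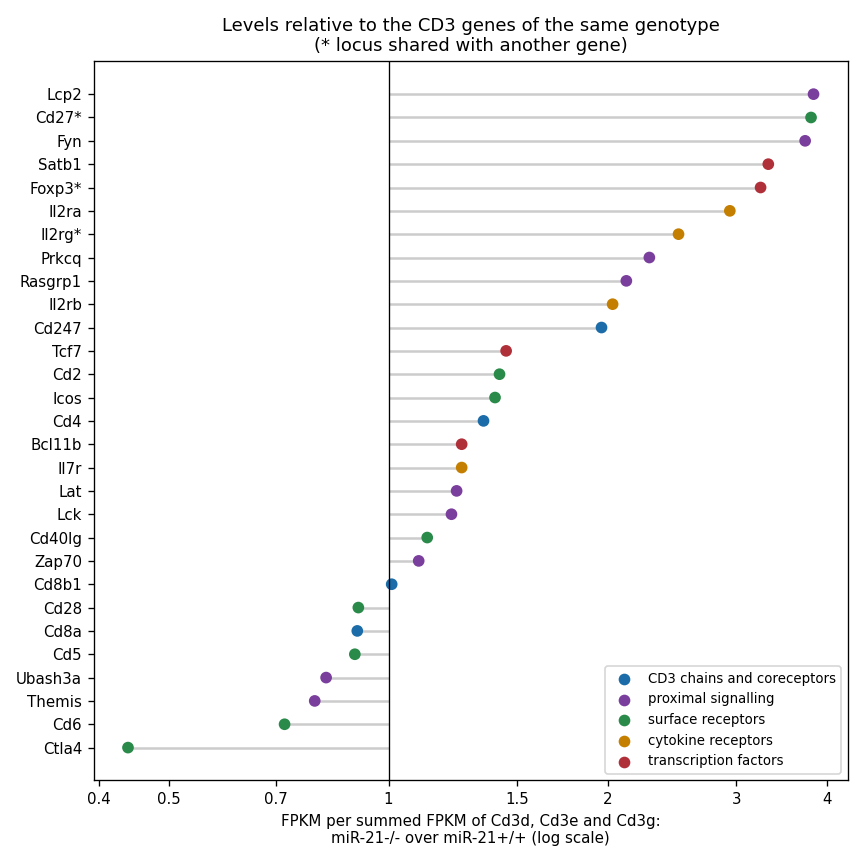
FPKM of each gene divided by the summed FPKM of Cd3d, Cd3e and Cd3g, as the ratio of miR-21-/- to miR-21+/+ (log axis), coloured by role; the 3 genes of the sum are left out. Points near 1 were lower in step with the CD3 genes, while Lcp2, Cd27 and Fyn lie near 3.8 and Ctla4 at 0.439.

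The order of levels differed between the genotypes. In miR-21+/+ glands Fyn, Il2rg, Tcf7 and Cd27 were the 4 highest, followed by Lat, Lck, Cd3g and Cd3e. In miR-21-/- glands Fyn, Il2rg and Cd27 were followed by Satb1, Tcf7 and Lcp2, while Cd3g was at rank 12 and Cd3e at rank 18. Ranks of neighbours in this order cannot be separated, since no spread is known.

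Several of the genes lie together in the genome (mm9). Cd3g, Cd3d and Cd3e lie within 40 kb on chromosome 9, from 44777655 to 44817673, with ratios of −2.57 to −1.92. Cd8b1 and Cd8a lie within 56.4 kb on chromosome 6, from 71272775 to 71329165. Cd28, Ctla4 and Icos span 254 kb on chromosome 1, from 60803232 to 61057164, and Cd5 and Cd6 lie within 112 kb on chromosome 19, from 10792632 to 10904548. Most genes around the T cell genes had ratios near 0. Within 500 kb of any of them were 292 other named genes above a mean FPKM of 1, with a median log2 ratio of −0.03, and 7.88% were lower by at least 1.5-fold. Without the genes of the other lists, such as Ms4a1 near Cd6, the share was 5.99% of 284, beside the 5.79% of all named genes.

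**Figure D4:**
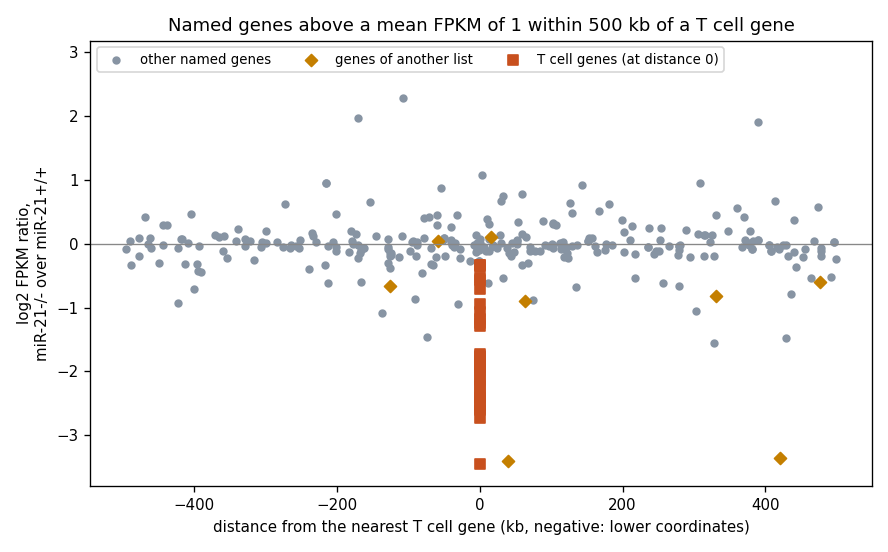
log2 ratio (miR-21-/- over miR-21+/+) of named genes above a mean FPKM of 1 against their distance in kb from the nearest T cell gene, with the T cell genes drawn at 0. Grey points scatter around a median of −0.02, and diamonds mark genes of the other lists, among them the B cell gene Ms4a1.

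Matches to miR-21 were looked up since the genotypes differ in this microRNA, which lowers its direct targets. Mature miR-21, with its seed (bases 2 to 8) in capitals, reads as follows in RefSeq, and the sites below show the match ATAAGCT in capitals within the 3′ UTR of the GENCODE transcript (mm9 coordinates of the match).
mmu-miR-21a-5p: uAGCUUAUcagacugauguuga
Rasgrp1, chr2:117107297-117107303, minus strand: ttatctacaaATAAGCTaatgg
Il2ra, chr2:11614791-11614797, plus strand: acctagaagtATAAGCTaaaat
Tcf7, chr11:52066659-52066665, minus strand: gctgctgttcATAAGCTgggcc
Satb1, chr17:51878276-51878282, minus strand: tatcatgcaaATAAGCTtaggt
These 4 of the 32 genes (12.5%) held a site in their longest annotated 3′ UTR, beside 6.96% of 12835 named genes above a mean FPKM of 1. Rasgrp1 and Il2ra had an 8mer and Tcf7 and Satb1 a 7mer-m8 site. The log2 ratios of these 4 genes were −1.18, −0.70, −1.73 and −0.53, so none was higher in miR-21-/- glands. A match describes the sequence and does not show that the microRNA acts on it.

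Other genes of the receptor pathway were examined as a list of 48 signalling genes, of which 46 were in the table and 40 above a mean FPKM of 1. Of these 40, 13 were lower by at least 1.5-fold and 0 higher, beside 5.79% and 4.88% of all named genes, with a median of −0.23. Among the lowest ratios were those of the adaptors Grap2 and Skap1. Grap2, an adaptor that binds LAT and SLP-76, was at 4.29 and 0.966 FPKM (−2.15), and Skap1, an adaptor of integrin activation, was at 2.52 and 0.663 FPKM (−1.92).

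Abundant members of this list serve many cell types. Ppp3r1 (37.97 and 35.97 FPKM) and Ppp3ca (28.0 and 31.4) encode calcineurin subunits, and Csk (30.5 and 25.8) encodes the kinase that restrains LCK. Their ratios ran from −0.24 to 0.17. Coro1a, a leukocyte actin regulator, was at 44.2 and 25.2 FPKM (−0.81). The highest ratios were 0.30 for the calcium channel Orai1, 0.24 for Dgkz and 0.23 for Nck2.

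Of 50 further T lineage genes, 46 were in the table and 39 above a mean FPKM of 1. Of these 39, 16 were lower by at least 1.5-fold and 2 higher, beside the same shares of all named genes, with a median of −0.52. Gimap1 and Gimap5 are joined in the same locus (−0.79), which is counted for each name among the 16. Ccr7, the chemokine receptor that guides naive T cells into lymph nodes, was at 6.98 and 0.817 FPKM (−3.10). Btla, an inhibitory receptor of B and T cells, was at 4.57 and 0.650 FPKM (−2.82).

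The 2 genes of this list that were higher encode factors that mammary cells also make. Gata3, a factor of luminal mammary epithelium as well as of T cells, was at 19.6 and 38.8 FPKM (0.99) in a locus joined with 9230102O04Rik. Runx1 was at 6.37 and 11.1 FPKM (0.81). Of the 5 most abundant, Cd52 on lymphocytes was at 48.5 and 24.3 FPKM (−0.99), while Ly6c1 (166 and 134 FPKM), Thy1 (55.7 and 53.6), Id3 (42.3 and 44.8) and Tnfrsf4 with its neighbour Sdf4 (38.0 and 32.9) had ratios from −0.30 to 0.08.

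**Figure D5:**
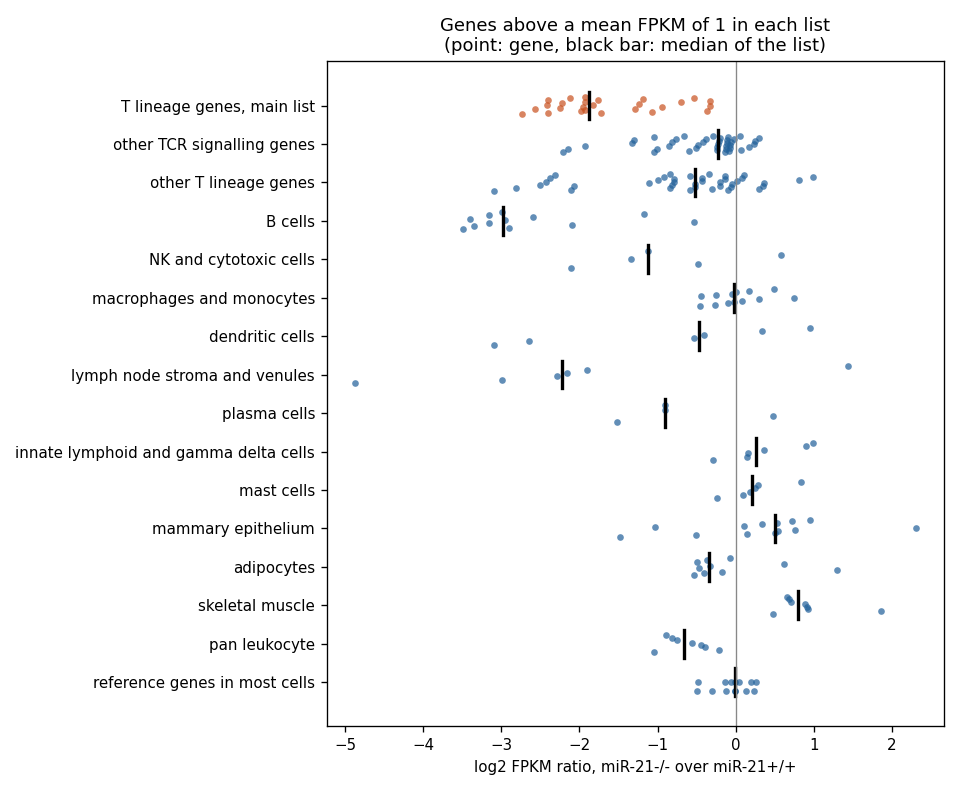
log2 ratio (miR-21-/- over miR-21+/+) of the genes above a mean FPKM of 1 in each list, 1 point per gene with a black bar at the median. The medians of the T lineage genes (−1.88), the B cell markers (−2.98) and the lymph node markers (−2.23) lie furthest to the left, and that of the macrophage markers lies at −0.02.

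Markers of other cells moved beside the T cell genes, and their part in the result was not tested. Of 12 B cell markers, all above a mean FPKM of 1, 11 were lower by at least 1.5-fold, with a median of −2.98 and summed levels of 138 and 64.5 FPKM. That sum is dominated by Cd79a, which is joined with Arhgef1, at 70.3 and 48.3 FPKM, followed by Cd37 at 21.5 and 9.48 and Cd79b at 12.3 and 2.88 FPKM. Of the lymph node stroma and venule markers, 5 of 6 above the minimum were lower by at least 1.5-fold and 1 was higher, and the 9 in the table summed to 172 and 13.9 FPKM. The miR-21+/+ sum was mostly Glycam1. Glycam1, a mucin of lymph node venules that mammary epithelium makes too, was at 136 and 4.63 FPKM (−4.88), Ltb, which lymphocytes make, at 13.9 and 2.83 and Cxcl13 at 9.47 and 2.53 FPKM, and Chst4 was at 0.571 FPKM and listed at 0 in miR-21-/- glands. The marker that was higher was Madcam1, an adhesion molecule of venules, at 0.576 and 1.56 FPKM (1.44). NK and cytotoxic markers summed to 34.1 and 13.3 FPKM, with Ccl5 at 21.5 and 4.97, Nkg7 at 3.50 and 1.38 and Klrd1 at 3.10 and 1.43 FPKM, and 3 of 5 above the minimum were lower. Most of that sum was Ccl5, which T cells make as well. Gzma (1.01 and 1.51 FPKM, 0.58) and Gzmb (0.529 and 1.09 FPKM, 1.05) were higher, and Klrb1c, Klre1, Klrk1 and Cst7 had ratios from −0.48 to −0.23. Prf1 (0.660 and 0.212 FPKM, −1.64), Ncr1 (0.448 and 0.249, −0.85) and Gzmk (0.0920 and 0.0592, −0.64) were lower by at least 1.5-fold, at levels below the minimum.

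Markers of myeloid cells differed among themselves. Of 13 macrophage and monocyte markers, 0 were lower and 1 was higher by at least 1.5-fold, with a median of −0.02 and sums of 1240 and 1190 FPKM. The most abundant were Lyz2 (381 and 319 FPKM), Cd68 in a merged locus (255 and 252) and C1qa (147 and 137). Of 6 dendritic cell markers above the minimum, 2 were lower and 1 was higher by at least 1.5-fold, with a median of −0.47 and sums of 33.6 and 22 FPKM. The lower ones were Ccr7, given above, and Ccl22, a chemokine of mature dendritic cells, at 5.84 and 0.930 FPKM (−2.65), and the higher one was Itgax at 1.45 and 2.80 FPKM (0.95). Pan leukocyte genes had a median of −0.66 and sums of 261 and 174 FPKM, plasma cell markers −0.91 with 189 and 165, innate lymphoid and gamma delta markers 0.26 with 104 and 164, and mast cell markers 0.21 with 129 and 161 FPKM. The plasma cell sums were mostly Xbp1 (84.0 and 117 FPKM) and Sdc1 (57.6 and 30.8). Those of the innate lymphoid list were mostly Areg (44.5 and 83.0 FPKM) and the joined Gata3 locus (19.6 and 38.8). The gamma and delta receptor genes of that list had no named entry. The defining markers of the tissue were present, with Adipoq at 1207 and 853 FPKM and Krt18 at 148 and 216 FPKM. Adipocyte markers had a median of −0.34, mammary epithelial markers 0.50, skeletal muscle markers 0.80 and 14 reference genes −0.01, so that the levels of these tissue markers differed in either direction. Some genes stand in 2 lists, such as Ccr7 (dendritic cell), Coro1a (pan leukocyte) and Gata3 (innate lymphoid). Fcer2a (4.77 and 0.597 FPKM) is counted among both the B cell and the lymph node markers, so these lists are not independent. Since both mice of a genotype share a value, the share of each tissue component in a sample and the genotype cannot be told apart.

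The locus that holds Mir21 within Vmp1 was at 42.5 and 68.2 FPKM (0.68). This is the value of the poly(A) host transcript, and it does not check the loss of the mature microRNA.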

How the data were processed

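Poly(A) RNA from mammary tissue of 4 mice was sequenced as single-end reads, which the authors mapped by TopHat (genome build mm9) and quantified with Cufflinks, and the deposited FPKM columns hold 1 value per genotype. Versions, annotation and normalization options are not given in the sources used here. The authors' own fold changes, test statistics, p-values, q-values and calls in the same table were not used, and its test status was read only to name failed loci. Each gene name was taken at its locus of highest mean FPKM, merged loci included. Ratios are plain log2 ratios of the FPKM values, and a gene was counted as lower or higher at 1.5-fold among names above a mean FPKM of 1. The model planned for values per mouse could not be fitted. Table starts were counted from 1. Counting and medians were tested on simulated data. With 1 value per genotype no error or interval is given. The 32 genes and all lists were chosen with earlier results of these data known. All 32 are named. Of the 2 further T cell lists the text names the 5 most abundant genes and the 3 lowest and 3 highest ratios, and of the B cell, lymph node, NK and macrophage markers the 3 most abundant, with the other marker lists given as sums or medians. Some genes under this rule are not reported here, and further marker genes were added with their values known. The receptor chain entries, promoters, motifs and 3′ UTR matches were added after the values were seen. Python 3.11.15, numpy 2.4.6, pandas 2.3.3 and matplotlib 3.10.9 were used.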

Additional observations from a re-analysis of the deposited data

How the results depend on the processing

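No paired analysis was possible because a genotype has 1 value, so neither the replicate block nor leaving out a mouse was run. Under each scaling and pseudocount tried all 32 T cell genes stayed lower in miR-21-/- glands, an outcome fixed in advance. A pseudocount added to both values keeps the sign of a ratio. The largest upward shift by a scaling was 0.0988, against a ratio of −0.33 for Lcp2, the smallest in size. The count of 22 of 26 genes lower by at least 1.5-fold became 4 of 7 with a mean FPKM above 5, beside 3.77% of 9846 named genes. Fewer genes pass there, and the share that was lower was smaller too, since Fyn, Cd27 and Satb1 did not reach the limit. The median of −1.88 became −0.94 with that minimum, −1.20 with a pseudocount of 1 and −2.51 with both columns scaled to equal sums over all loci, which shifts every gene by −0.63 and puts 64.6% of named genes past the limit. Among genes above 1 FPKM in both genotypes it was −1.51 with 16 of 20 genes lower by 1.5-fold, and for a mean FPKM from 1 to 10 it was −1.93 with 21 of 23, both chosen after seeing the data. The count was 27 of 32 without a minimum, beside 10.3% of named genes, and 21 of 24 without merged loci, beside 5.78%. At 2-fold it was 20 of 26, beside 2.09%, and at any size 26 of 26, beside 55.6%. Equal sums over all loci also gave 26 of 26, beside the 64.6% above. Under the other alternatives the count was 21 or 22 of 26, beside 3.97% to 5.78%. The medians not given above were −1.93 to −1.74. Of single genes, Fyn, Lcp2, Cd27, Satb1 and Foxp3 passed 1.5-fold under equal sums over all loci, and none changed under equal sums over named loci. Cd40lg and Il2ra fell short of 1.5-fold with a pseudocount of 1.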
